A study of Mus musculus with 4 samples.

Results

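Natural killer (NK) cells were described in single-cell RNA-sequencing data of viable cells dissociated from mouse lung tumors. They were taken by their receptor transcripts. A cell was counted as an NK cell when it had at least 200 detected genes, at most 13.4% of its unique molecular identifiers (UMIs, each marking 1 captured transcript) in mitochondrial genes, at least 2 UMIs summed over Ncr1, Klre1, Klrb1c and Klra8, no UMI of the CD3 genes Cd3d, Cd3e and Cd3g, no Cd79a UMI, and at most 2 UMIs summed over C1qa, C1qb and C1qc. This gave 401 NK cells among 19892 cells that passed the gene and mitochondrial filters, or 2.02% (exact 95% binomial interval 1.83 to 2.22), out of 20351 cells in all. The 4 marker genes of the choice, and the T cell, B cell and C1q genes of its exclusions, are given as a description and support nothing.

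The tumors came from 4 mice that all carried Lkb1XTR/XTR and a Rosa26 tdTomato allele, and that all received tamoxifen for 2 weeks in doses of 4 mg, 16 weeks after Lenti-Cre started the tumors. Cre, which the virus delivers to lung cells, turns on tdTomato and inverts a gene trap in Lkb1 (gene symbol Stk11). The 2 Restored mice also had FLPo-ERT2, a tamoxifen-activated recombinase expressed from Rosa26 that removes the trap, and the 2 Non-Restored mice lacked it. NK cells themselves are hosts of the tumor and not its product, and the mice had a mixed C57BL/6J:129 background. All cells stand in 1 matrix whose columns carry only a number, so no cell could be tied to a mouse, barcodes shared between libraries could not be counted, and Restored and Non-Restored mice were not compared. The data therefore count as 1 sample, without a test or p-value, and all intervals cover counting error only and leave out the spread between mice.

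NK cells are innate lymphocytes that kill tumor and virus-infected cells with perforin and granzymes and secrete interferon-γ and chemokines. They carry no rearranged antigen receptor. Whether they attack depends on the balance of activating receptors, which signal through the adaptors DAP12 (Tyrobp), DAP10 (Hcst) and the Fc receptor γ chain (Fcer1g), and inhibitory receptors such as the Ly49 family, which bind MHC class I on healthy cells. The cytokine IL-15 and the T-box factors Eomes and T-bet sustain them.

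A median NK cell held 1204 UMIs (5th to 95th percentile 651 to 2711) and 643 genes, and the set of 401 held 559927 UMIs, 0.965% of all UMIs in the filtered cells. The comparison sets were 806 CD8 T cells (a CD3 UMI and a Cd8a or Cd8b1 UMI, no Cd4), at a median of 1892.5 UMIs, all 19491 other cells, at a median of 2032 UMIs, and 1684 B cells, at a median of 1452.5 UMIs, as a lymphocyte background for RNA that leaked from other cells. Levels are CPM, a gene's UMIs summed over a set and scaled to a total of 1000000 UMIs. Since each UMI marks a transcript tagged at its 3′ end, CPM was not divided by gene length. Summed UMIs cannot tell fewer cells of a type apart from less RNA per cell.

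Of 441 cells with at least 2 UMIs of the 4 markers, 40 failed another criterion: 32 had a CD3 UMI, 5 a Cd79a UMI and 3 over 2 C1q UMIs. Of the 32, 12 had exactly 1 CD3 UMI, 11 a Trac UMI, 11 a Trdc UMI and 4 a Cd8a or Cd8b1 UMI. Among the 401 members 138 had exactly 2 marker UMIs, 103 had 3, 78 had 4 and 82 had 5 or more, up to 11. Ncr1, which encodes the activating receptor NKp46, was seen in 350 of them, Klre1 in 279, Klrb1c (NK1.1) in 61 and Klra8 (Ly49H) in 53. Just outside the threshold, 155 cells met every other criterion with 1 marker UMI. Gzma stood at 4565 CPM in these, 7407 CPM in the members with exactly 2 marker UMIs and 8704 CPM in those with 3 or more, and the shares of cells with at least 2 Gzma UMIs were 60.0%, 81.2% and 90.5%. Cells with the NK profile were thus still common just below the threshold.

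The label was checked against genes that the choice had not used. Eomes, the T-box factor that marks conventional NK cells, was at 195 CPM in NK cells, 14.8 CPM in CD8 T cells and 0 in B cells. Itga2, which encodes the NK surface antigen CD49b, was at 102, 4.95 and 2.16 CPM, and Prf1 (perforin) at 661, 22.5 and 7.40 CPM. Trac, the constant segment of the T cell receptor α chain, had 2 UMIs in the 401 cells (3.57 CPM) against 247 CPM in CD8 T cells. Of the 19 T cell receptor and coreceptor genes, 8 were at 0 in NK cells, among them all those excluded by the choice, and Trbc1 (227 CPM), Cd2 (198 CPM) and Trdc (76.8 CPM) were the highest. The 10 ILC2 genes summed to 173 CPM in NK cells, above their sum in CD8 T cells and below the 197 CPM in all other cells. Klrg1, which mature NK cells also carry, gave 56 of these UMIs in NK cells and Gata3 26, and Il1rl1, Il13, Il5 and Il17rb had 0.

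A few members carried many transcripts of other lineages. The macrophage list summed to 2715 CPM in NK cells, 2368 CPM in CD8 T cells and 1975 CPM in B cells, with C1qb at 0 in NK cells, and the neutrophil list to 1393, 2975 and 812 CPM. The epithelial list stood at 80.4, 1406 and 2382 CPM. Leaving out C1qa, C1qb and C1qc, these 3 lists gave 2340 UMIs in NK cells. Of these UMIs 93.9% lay in 10 cells with at least 10 each, and the median NK cell had 0. In CD8 T cells 53 such cells held 95.6%. Several results below are also given without these cells.

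Promoters of 4 genes that mark the NK profile are printed here, chosen because all of them hold the RUNX core, the 6 bases recognised by RUNX factors, and Runx3 is itself among the NK transcription factors described below. The sequences are the 250 bases before the transcription start from RefSeq on GRCm38.p6 (the patched form of mm10), read 5′ to 3′ on the strand of the gene. They span chr7:4337465-4337714 on the plus strand for Ncr1, chr13:113100982-113101231 on the minus strand for Gzma, chr14:56262335-56262584 on the minus strand for Gzmb and chr10:61297586-61297835 on the plus strand for Prf1. Capitals mark TGTGGT or its reverse complement.
Ncr1: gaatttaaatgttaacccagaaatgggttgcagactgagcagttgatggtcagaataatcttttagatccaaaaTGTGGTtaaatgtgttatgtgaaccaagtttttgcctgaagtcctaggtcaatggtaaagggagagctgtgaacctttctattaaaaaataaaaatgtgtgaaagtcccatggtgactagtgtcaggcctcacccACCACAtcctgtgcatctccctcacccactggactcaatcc
Gzma: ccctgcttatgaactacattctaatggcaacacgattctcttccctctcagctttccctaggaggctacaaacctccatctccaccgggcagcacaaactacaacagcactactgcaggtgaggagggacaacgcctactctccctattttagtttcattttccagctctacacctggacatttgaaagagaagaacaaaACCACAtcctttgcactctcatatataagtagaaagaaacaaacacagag
Gzmb: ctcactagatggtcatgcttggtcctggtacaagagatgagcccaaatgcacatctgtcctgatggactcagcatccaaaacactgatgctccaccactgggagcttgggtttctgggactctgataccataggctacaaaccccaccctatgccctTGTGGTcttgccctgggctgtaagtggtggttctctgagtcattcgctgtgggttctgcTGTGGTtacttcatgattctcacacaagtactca
Prf1: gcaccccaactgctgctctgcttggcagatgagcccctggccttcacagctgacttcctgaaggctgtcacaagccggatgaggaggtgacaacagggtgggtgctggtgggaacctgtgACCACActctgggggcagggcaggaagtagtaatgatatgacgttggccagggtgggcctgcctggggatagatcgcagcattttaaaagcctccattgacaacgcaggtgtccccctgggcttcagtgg
The core lay 45 to 50 bases before the start in Gzma, at 29 to 34 and 88 to 93 bases in Gzmb, at 36 to 41 and 171 to 176 bases in Ncr1 and at 125 to 130 bases in Prf1. Of all 32851 promoter entries, of which a gene can have more than 1, 14.0% held it on either strand. In the lists only the first entry of each gene was searched. The core was in 9 of 15 genes of the granule list with an entry, 7 of 15 activating receptor genes and 8 of 18 inhibitory receptor genes. It was in 1 of 11 NK transcription factor genes and 0 of 7 T cell receptor complex genes. These counts include the 4 printed genes, chosen for holding the core, and were not read as an enrichment. The T-box core GGTGTGA, also searched on both strands, was in 3.33% of all promoter entries, in 3 of the 15 granule genes, and in none of the other 4 lists. A match is a stretch of letters and not a measured binding site.

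Against CD8 T cells, the lymphocytes that share the killing machinery, NK cells had far more cytotoxic, receptor and chemokine transcripts and fewer transcripts of the naive T cell program. Among 5601 genes at 20 CPM or more in either set, 907 were at least 2-fold higher in NK cells, or 16.2%, and 370 at least 2-fold lower, or 6.61%. The median log2 ratio over all these genes was 0.41, not 0. Ribosomal protein transcripts took 39.2% of the UMIs of CD8 T cells and 24.0% of those of NK cells. With totals that left out ribosomal protein UMIs the median was 0.05, 591 genes were higher and 796 lower, so the share of higher genes among those past 2-fold went from 71.0% to 42.6%. Log2 ratios against CD8 T cells below are to be read from 0.41 as the middle. Against all other cells the median over 6403 genes was 0.05, with 698 (10.9%) at least 2-fold higher in NK cells and 1286 (20.1%) at least 2-fold lower.

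Transcripts of the killing machinery were among the most abundant of the listed genes. Gzma, which encodes the tryptase granzyme A, reached 8303 CPM (95% Poisson interval 8066 to 8545) in NK cells against 140 CPM (123 to 158) in CD8 T cells and 43.0 CPM in all other cells, 59.5-fold above CD8 T cells. Gzmb, encoding granzyme B, which cleaves caspases in the target cell, stood at 1273 CPM (1182 to 1370) against 29.7 CPM, and Prf1 at 661 CPM (595 to 732) against 22.5 CPM. Nkg7, a granule membrane protein, was at 2888 CPM and 401 CPM. NK cells also had 804 CPM of Serpinb9, the granzyme B inhibitor that protects the killer itself, and 634 CPM of its relative Serpinb6b, against 22.5 and 51.7 CPM. Fasl, the ligand of the Fas death receptor, was at 209 CPM and 19.2 CPM. None of these intervals overlapped between the sets. Over all genes, 875 of the 907 at least 2-fold higher ones had a ratio interval off 0, so this is not particular to these genes.

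Of the 17 listed granule and death ligand genes, 13 were high enough to be compared with CD8 T cells. In NK cells 9 were at least 2-fold higher, 0 lower and 4 in between, and the median log2 ratio was 2.85 beside 0.41 over all genes. Of the 9, Ctsw (cathepsin W) and Cst7 (cystatin F) were the closest to 2-fold, at log2 ratios of 1.64 (1.38 to 1.90) and 1.45 (0.97 to 1.93). Those in between included Lamp1 (121 CPM and 126 CPM), a lysosomal membrane protein of most cells, and Srgn (1068 CPM and 857 CPM), the proteoglycan core of granules. Other granzyme transcripts were near the floor, Gzmk with 3 UMIs, Gzmc with 2 and Gzmm with 6 in all 401 cells. Of these 5 granzyme genes, NK cells thus carried mainly Gzma and Gzmb.

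**Figure D1:**
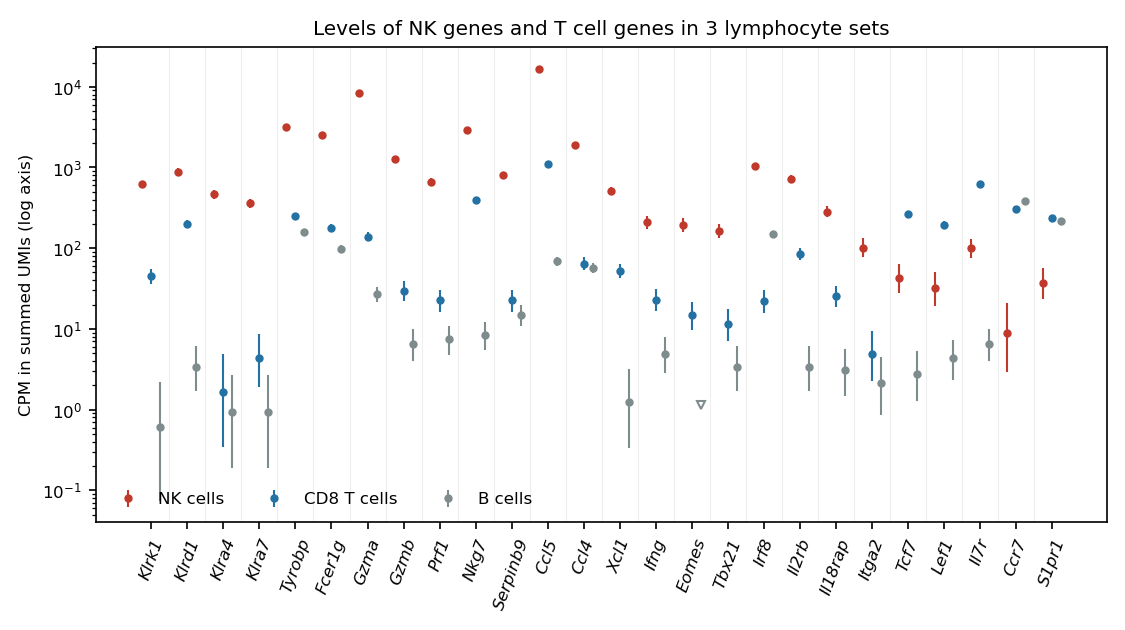
CPM (log axis) of 26 genes in NK cells (red), CD8 T cells (blue) and B cells (grey), as points with exact 95% Poisson intervals; an open triangle marks the upper limit of the interval where a set had 0 UMIs. Receptor, granule, chemokine and transcription factor genes from Klrk1 to Itga2 were higher in NK cells, such as Gzma at 8303 CPM against 140 CPM in CD8 T cells, and the last 5 genes, from Tcf7 to S1pr1, were lower.

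NK cells held a large part of these transcripts although they made up 2.02% of cells. Of all Gzma UMIs in the filtered cells, 65.3% (64.2 to 66.4) lay in the 401 NK cells and 3.57% in CD8 T cells. The NK share was 53.8% for Prf1, 44.7% (42.3 to 47.2) for Gzmb, 43.3% (42.6 to 43.9) for Ccl5 and 49.8% (43.0 to 56.6) for Eomes. It was 68.9% (63.3 to 74.1) for Cma1, the mast cell chymase gene, which is also on the list of mature NK genes. The rest includes cells just below the threshold.

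The genes differed in how evenly they spread over the 401 cells. Ccl5 was seen in 97.8% of cells, with a median of 20 UMIs, a 95th percentile of 51 and a highest value of 116. Gzma was seen in 360, with a median of 10 and a highest value of 74, and Nkg7 in 364 with a median of 4 and a highest value of 18. These 3 were therefore general features of the set. Gzmb and Prf1 reached a median of 1 UMI, in 231 and 213 cells. At the other end Xcl1 had 286 UMIs in 76 cells, and 1 cell held 103 of them. Ccl4 had 1075 UMIs in 185 cells, and 25 cells held at least 50% of them.

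**Figure D2:**
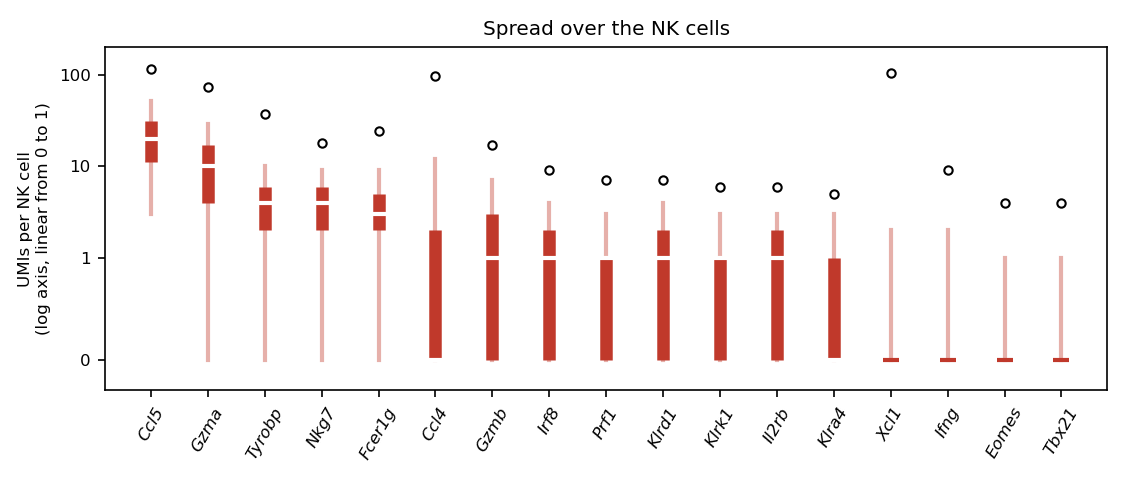
UMIs per NK cell (log axis, linear from 0 to 1) for 17 genes over the 401 NK cells; the white or red tick is the median, the thick bar spans the 25th to 75th percentile, the thin bar the 5th to 95th, and the open circle is the highest cell. Ccl5 and Gzma had medians of 20 and 10 UMIs, while Xcl1, Ifng, Eomes and Tbx21 had a median of 0 and, for Xcl1, a highest cell with 103 UMIs.

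Shares of cells with a UMI were compared after each cell was thinned to 1000 UMIs, which kept 292 of 401 NK cells, 778 of 806 CD8 T cells and 1478 of 1684 B cells. Gzma was then seen in 87.3% of NK cells (83.0 to 90.9), 2.44% of CD8 T cells and 0.474% of B cells, and without thinning in 89.8% of NK cells. Prf1 was seen in 44.2% (38.4 to 50.1), 2.06% and 0.474%, and in 53.1% of NK cells without thinning. For Eomes the shares were 15.8% (11.8 to 20.4), 1.16% and 0%. Since 0 of 1478 B cells had an Eomes UMI, the share in NK cells stood above what leaked RNA gave in B cells, although it marked only a minority of NK cells at this depth.

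Among activating receptors that the choice had not used, Klrk1 (NKG2D, a receptor for stress-induced ligands) was at 620 CPM (556 to 688) in NK cells against 45.1 CPM in CD8 T cells, and Klra4 (Ly49D) at 464 CPM (410 to 524) against 1.65 CPM. Klra4 had only 3 UMIs in all CD8 T cells, so its log2 ratio of 8.14 has a wide interval (6.57 to 10.42). Klrc2 (NKG2C) was at 80.4 CPM and 6.05 CPM. Cd244 (2B4) and Slamf7, both of the SLAM family, had log2 ratios of 4.70 and 2.89, with 102 CPM of Slamf7 against 13.7 CPM. Slamf6, another SLAM receptor, went the other way, at 14.3 CPM against 149 CPM.

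The adaptors that carry these signals differed among themselves. Tyrobp was at 3136 CPM in NK cells and 250 CPM in CD8 T cells, and Fcer1g at 2549 CPM and 179 CPM, log2 ratios of 3.65 (3.50 to 3.80) and 3.83 (3.66 to 4.01). Hcst, which pairs with NKG2D in both cell types, was close to the middle of all genes, at 907 CPM and 648 CPM (0.49, 0.33 to 0.64). Cd247, the CD3 ζ chain, was lower in NK cells, at 51.8 CPM and 115 CPM. Of the 20 genes in the activating list, 18 were compared with CD8 T cells, 13 were higher, 2 lower and 3 in between, with a median log2 ratio of 3.69. The 13 include Ncr1, Klrb1c and Klra8, by which the cells were chosen, and Fcgr3 (46.4 CPM against 23.1 CPM), which was just past 2-fold and fell short of it under 4 alternatives, among them the totals without ribosomal protein UMIs.

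Inhibitory receptors of the NK gene complex were likewise high. Klrd1 (CD94, which pairs with NKG2A or NKG2C) was at 891 CPM (815 to 973) against 202 CPM, Klra7 (Ly49G) at 359 CPM against 4.40 CPM and Klra1 (Ly49A) at 225 CPM against 2.20 CPM. Klrb1f and Klrb1a, of the NKR-P1 family, were at 179 CPM and 227 CPM. They stand on the inhibitory list, but whether they inhibit or activate was not examined here. Klrb1f had 0 UMIs in CD8 T cells and so was at least 108-fold higher, taking 3 UMIs as the limit there. Checkpoint receptors of exhausted T cells were not prominent in NK cells: Pdcd1 had 0 UMIs, Lag3 and Ctla4 1 each, Havcr2 2 and Tigit 5. For Pdcd1, 0 UMIs allow up to 5.36 CPM, and CD8 T cells had 3.85 CPM, so no difference was detectable. Ctla4 was at 55.5 CPM in CD8 T cells. Of the 22 listed inhibitory receptors, 14 were compared with CD8 T cells, 12 were higher, 1 (Ctla4) lower and 1 (Cd96) in between, with a median log2 ratio of 4.22. Klre1, a gene of the choice, is among the 12, as are Klrb1f and Klrb1a, so the 12 are not all established here as inhibitory.

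The Klr genes compared here lie together on chromosome 6 of mm10, where the 24 of the table, apart from Klrg1 and Klrg2, span positions 128609227 to 131247362 (2.64 Mb) in the GENCODE vM21 annotation. Ly49 genes are close paralogs whose number differs between mouse strains, so the counting could assign reads of an absent or strain-specific copy to another gene. Of the 90-base windows in the last 400 bases of each gene's longest coding transcript, 0% were also found in another Ly49 gene for Klra4, Klra1, Klra8 and Klra5, 0.965% for Klra3, 6.11% for Klra9, 13.5% for Klra7 and 20.6% for Klra10. Exact repeats within the reference were therefore few, but alleles of the 129 strain were not looked at.

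Single NK cells showed UMIs of different Ly49 genes, and how far this comes from missed transcripts at shallow depth was not tested. Of 8 Ly49 genes, Klra4 was the highest, at 464 CPM (410 to 524), followed by Klra7 at 359 CPM (311 to 412), whose interval met that of Klra4 only at the edges. Klra1 came next at 225 CPM (187 to 268), then Klra8 at 111 CPM (84.9 to 142) and Klra9 at 94.7 CPM (70.9 to 124), which overlapped each other. Klra5 (30.4 CPM), Klra10 (21.4 CPM) and Klra3 (12.5 CPM) overlapped as well and rested on 7 to 17 UMIs. At least 1 of the 8 was seen in 285 of 401 cells (71.1%) and at least 2 in 138 (34.4%), or in 64.4% and 28.1% of 292 cells after thinning. No cell had more than 6. Klra8 took part in choosing the cells, so its place in this order is not independent.

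Klra4 was seen in 167 cells and Klra7 in 107. Klra7 UMIs were in 51 of the 167 cells with Klra4 (30.5%) and in 56 of the 234 without it (23.9%). Klra1 UMIs were in 59 of the 167 (35.3%) and 44 of the 234 (18.8%). A cell with more UMIs shows more of every gene, so these shares are a description of what was seen together.

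**Figure D3:**
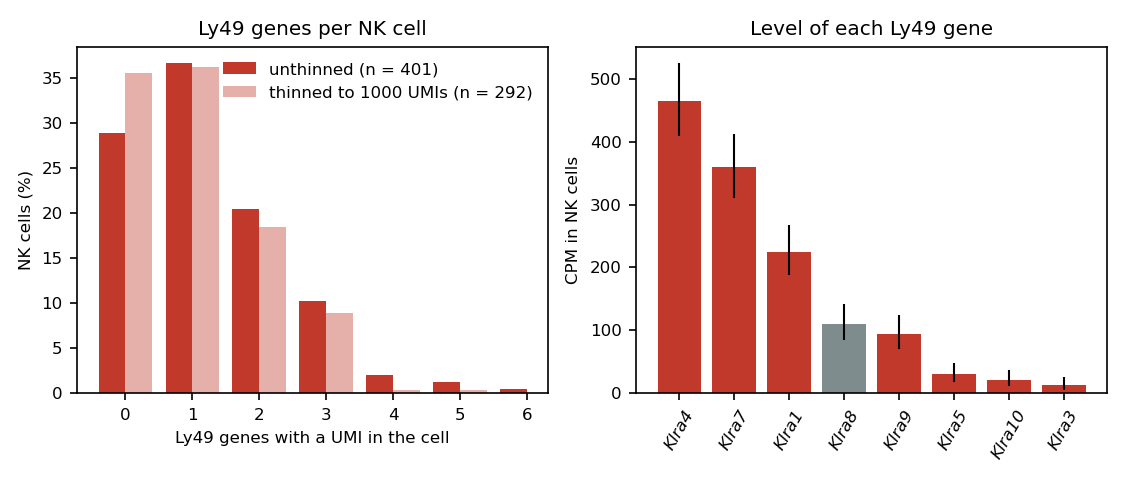
Left, share of NK cells (%) by the number of Ly49 genes, of 8, with a UMI in the cell, unthinned (n = 401) and thinned to 1000 UMIs (n = 292). Right, CPM of each Ly49 gene in NK cells with exact 95% Poisson intervals, Klra8 in grey because it was used to choose the cells; Klra4 was the highest at 464 CPM and Klra3 the lowest at 12.5 CPM.

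Chemokine transcripts dominated the secreted factors. Ccl5 (RANTES) was the most abundant gene described here, at 16468 CPM (16134 to 16808) in NK cells against 1097 CPM in CD8 T cells and 210 CPM in all other cells. Ccl4 and Ccl3, chemokines that attract leukocytes, were at 1920 CPM and 443 CPM against 64.3 CPM and 46.2 CPM in CD8 T cells. All other cells had 588 CPM of Ccl4 and 353 CPM of Ccl3, so Ccl3 was past 2-fold only against CD8 T cells. Xcl1, which attracts cross-presenting dendritic cells, was at 511 CPM (453 to 574) against 52.8 CPM and 8.75 CPM, and 36.0% of its UMIs came from 1 cell. Ifng, encoding interferon-γ, was at 209 CPM (173 to 250) against 23.1 CPM and was seen in 61 of 401 NK cells. Tnf was lower than in CD8 T cells, at 26.8 CPM against 67.1 CPM. Among 17 listed cytokine and chemokine genes, 11 were compared with CD8 T cells, 6 were higher, 3 (Tnf, Ltb and Areg) lower and 2 in between, with a median log2 ratio of 1.01. Of these 6, Flt3l was at the border, with a log2 ratio of 1.01 (0.08 to 1.91).

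The receptor genes for cytokines were mixed. Il2rb, the β chain shared by the IL-2 and IL-15 receptors, was at 727 CPM (658 to 801) in NK cells and 85.2 CPM in CD8 T cells. Il12rb2 was at 116 CPM against 2.75 CPM, and the IL-18 receptor genes Il18rap and Il18r1 were at 284 and 271 CPM against 25.3 and 103 CPM. Il7r, the receptor of naive T cells and of many innate lymphoid cells, was at 628 CPM in CD8 T cells and 6.28-fold lower in NK cells (log2 ratio -2.65, -3.06 to -2.26). Of 23 listed receptor and signalling genes, 20 were compared with CD8 T cells, 6 were higher, 5 lower and 9 in between, and the median of 0.47 was close to that of all genes.

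**Figure D4:**
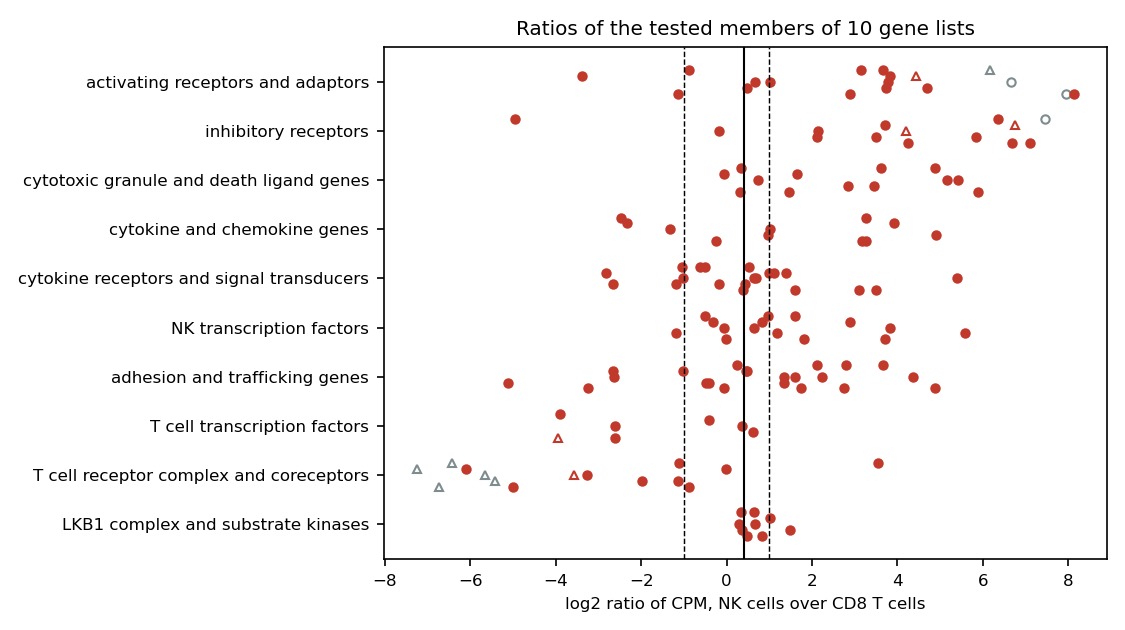
Log2 ratio of CPM in NK cells over CD8 T cells for the compared members of 10 gene lists. Each symbol is a gene, open grey symbols are genes used to choose NK or CD8 T cells, and triangles are bounds where a set had 0 UMIs; the solid line is the median of all genes at 0.41 and the dashed lines are 2-fold. Receptor and granule lists lie to the right, most genes of the T cell lists to the left, and the LKB1 list around the solid line.

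The transcription factors differed in part between NK and CD8 T cells. Lineage and a naive or effector state of the CD8 T cells were not told apart here. Irf8 was at 1052 CPM (969 to 1140) in NK cells, 22.0 CPM in CD8 T cells and 112 CPM in all other cells. Eomes and Tbx21 (T-bet) were 13.1-fold and 14.2-fold above CD8 T cells, the latter at 164 CPM and 11.5 CPM. Zeb2, which promotes late NK maturation, was at 275 CPM and 37.4 CPM. Factors used by both lineages stayed closer: Runx3 was at 329 CPM and 211 CPM, Ets1 at 254 CPM and 358 CPM, and Klf2 at 504 CPM and 524 CPM. Of 15 NK factors, all compared, 7 were higher, 1 (Bach2) lower and 7 in between, with a median log2 ratio of 0.98. Id2, an NK and ILC factor, lay just under 2-fold at 0.98 (0.76 to 1.19).

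On the T cell side, Tcf7 and Lef1, which maintain naive and memory T cells, were at 42.9 CPM and 32.1 CPM in NK cells against 262 CPM and 196 CPM in CD8 T cells. Bcl11b, which commits cells to the T lineage, was at 8.93 CPM and 133 CPM. Themis, needed in T cell selection, had 0 UMIs in NK cells and was at least 15.5-fold lower. Of 10 T cell factors, 7 were compared, 0 were higher, 4 lower and 3 in between, with a median log2 ratio of -2.61. All other cells, in which T cells are a part, had 46.5 CPM of Tcf7, close to the level in NK cells.

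Trafficking genes also differed in part between NK cells and the CD8 T cells, whose naive or effector state was not told apart. Ccr7, which guides cells into lymph nodes, was at 8.93 CPM (2.90 to 20.8) in NK cells against 309 CPM in CD8 T cells, and S1pr1, which guides them out, at 37.5 CPM against 235 CPM. NK cells instead had S1pr5, the NK form of that receptor, at 48.2 CPM against 1.65 CPM, Cx3cr1 at 104 CPM against 8.25 CPM and Ccr2 at 148 CPM against 31.3 CPM. Residence genes were low, with 3 UMIs of Cxcr6 and 2 of Itgae. Of the 22 adhesion and trafficking genes, all compared, 11 were higher, 5 lower and 6 in between, with a median log2 ratio of 0.91.

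The 10 genes with the largest ratios over CD8 T cells, among genes at 50 CPM or more outside the choice, were Gzma, Klra4, Cma1, Irf8, Gzmb, Ccl4, Klra7, Serpinb9, Prf1 and Klrb1a. The 10 with the lowest were Dapl1, Ccr7, Sftpc, Gm8369, Actn1, Scd1, Gpx3, Sftpa1, Themis and Igfbp4. Dapl1, a transcript of naive T cells, was at 377 CPM in CD8 T cells and 0 in NK cells, at least 70.3-fold lower. Sftpc, Sftpa1, Scd1 and Gpx3, which include surfactant genes of alveolar cells, had log2 ratios of -4.11, -4.15, -4.78 and -5.16. Without the cells that carried other-lineage UMIs none of the 4 was at least 2-fold lower, and that of Sftpc was 0.10. Leaving out these cells also changed the higher genes from 907 to 1186 and the lower from 370 to 302. Against all other cells the leading genes were Gzma, Ccl5, Nkg7, Gzmb, Prf1, Klra4, Cma1, Klra7, Klrd1 and Xcl1. The lowest there were Sftpc, H2-Eb1, Scgb1a1, Sftpa1, Sftpb, H2-Ab1, Cd74, Scd1, H2-Aa and Ccl17, which are epithelial genes and genes of antigen presentation by MHC class II, apart from Scd1 (a fatty acid desaturase) and Ccl17 (a dendritic cell chemokine).

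A stricter comparison used the 108 of 806 CD8 T cells with a Ccl5 UMI, a transcript of effector and memory T cells. Gzma (log2 ratio 3.04 in place of 5.89), Prf1 (3.66 in place of 4.87), Irf8 (4.03 in place of 5.58) and Klra4 (5.27 in place of 8.14) stayed past 2-fold. Ifng did not (0.90 in place of 3.18), nor did Ctsw (0.44 in place of 1.64), Ly6c2 (0.45 in place of 2.17) or Itgb1 (0.03 in place of 1.34). These 108 cells were picked by Ccl5, so that gene was not read in this comparison.

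NK cells varied along a maturation axis. Against CD8 T cells, all 12 listed mature NK genes were at least 2-fold higher in NK cells (median log2 ratio 2.82), and of 11 immature genes compared 3 (Xcl1, Ctla2a and Cd7) were higher and 6 lower (median -1.39), among them the T cell genes Tcf7, Il7r and Thy1. After thinning, cells were sorted by 6 genes of mature NK cells (Itgam, S1pr5, Cma1, Klrg1, Cx3cr1, Zeb2) and 7 of immature ones (Cd27, Ltb, Emb, Il7r, Thy1, Kit, Ctla2a). Of 292 cells, 111 (38.0%, 32.4 to 43.9) had only mature gene UMIs, 81 (27.7%, 22.7 to 33.3) only immature ones, 36 both and 64 neither. A single UMI placed 48 of the 111 and 25 of the 81, so these are ends of a range and not types. The sides had similar depth, at medians of 1278 and 1373 UMIs.

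In genes outside the sorting, the mature side had more of the killing machinery. Gzma was at 11523 CPM on the mature and 3809 CPM on the immature side, a log2 ratio of 1.60 (1.46 to 1.74), Gzmb at 1769 CPM and 465 CPM (1.93, 1.53 to 2.34) and Prf1 at 855 CPM and 347 CPM (1.30, 0.82 to 1.81). Ccl4 (1.45, 1.16 to 1.75), Ccl5 (1.17, 1.08 to 1.26) and Irf8 (1.13, 0.75 to 1.53) went the same way, as did Ly6c2 (1.86, 1.40 to 2.36), a surface antigen of mature NK cells. The immature side had more Xcl1, at 509 CPM and 105 CPM (-2.27, -3.11 to -1.51), more Cd7 (-1.74, -2.74 to -0.81) and more Rora (-1.92, -3.28 to -0.72). It also had more Tmem176a (14 UMIs against 3) and Tmem176b (20 against 3), which are used below to look for other innate lymphoid cells. How many cells that division shares with the immature side was not counted, nor was their part in these ratios tested. Tcf7 had 14 UMIs on the immature side and 0 on the mature side. Eomes (-0.05, -0.90 to 0.81) and Klra4 (0.43, -0.10 to 0.99) had intervals that held 0, as did Tbx21. Of the receptors, Slamf7 was higher on the mature side (1.38, 0.12 to 2.85) and Klrk1 lower (-0.45, -0.89 to -0.01).

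Without the cells that carried other-lineage UMIs, 105 mature and 78 immature cells remained, and the ratios of Gzma (1.60), Gzmb (2.04), Prf1 (1.31) and Xcl1 (-2.35) were close to those above. The 10 genes of largest ratio on the mature side, in contrast, were led by Ifi27l2a, Retnlg and Plac8. Retnlg, a neutrophil gene, had 42 of its 50 UMIs over all NK cells in a single cell, and Ifi27l2a 26 of 33, so these were not read as genes of mature NK cells. The immature side likewise held vessel-associated transcripts, Igfbp7 with 18 UMIs against 0, Col4a2 with 8 against 0 and Ramp2 with 7 against 1, and these stayed after the cells with other-lineage UMIs were left out. A single NK cell held 7 of the 8 Ramp2 UMIs in the set. Their part in the ratios above was not tested.

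**Figure D5:**
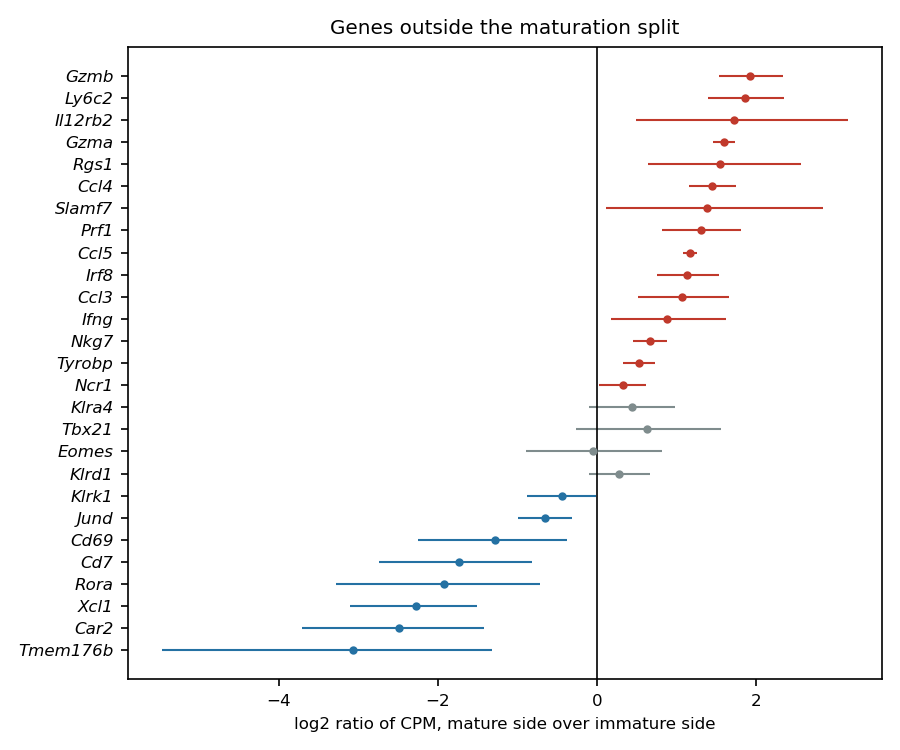
Log2 ratio of CPM on the mature over the immature side of the NK cells for 27 genes that were not used to sort them, with exact 95% intervals. Red intervals lie above 0, such as Gzmb at 1.93 and Gzma at 1.60, blue ones below 0, such as Xcl1 at -2.27, and grey ones hold 0.

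Cells resembling group 1 innate lymphoid cells (ILC1), tissue-resident relatives that share NKp46, were few by the genes searched. Of 10 ILC1 or tissue-resident genes compared with CD8 T cells, 0 were higher and 5 lower, with a median log2 ratio of -1.43. Of the 292 thinned cells, 16 (5.48%, 3.16 to 8.75) had a UMI of Itga1, Cxcr6, Cd200r1, Tmem176a or Tmem176b and none of Eomes, 43 had Eomes and none of the 5, 3 had both and 230 neither. The 16 cells, set against the 43, had less Gzma (3491 CPM against 8213 CPM, log2 ratio -1.23, -1.55 to -0.93), less Ccl4 (-2.19, -2.95 to -1.50) and less Irf8 (-2.00, -3.27 to -0.94), and more Il7r (15 UMIs against 2). Xcl1 was at 1309 CPM and 202 CPM (2.70, 1.74 to 3.77), but without thinning this ratio turned to -0.55 (-1.08 to -0.04). A cell with 103 Xcl1 UMIs makes up 36.0% of all Xcl1 UMIs in NK cells. The 16 cells also held transcripts of other cell types. Lyz2, a myeloid gene, had 77 UMIs in them against 10 in the 43, and the vessel-associated genes Igfbp7, Sparc, Col4a2, Ramp2 and Egfl7 had 18, 9, 8, 7 and 5 against 0. Without the cells that carried other-lineage UMIs, 15 and 41 cells remained, Lyz2 was at 0 and 2 UMIs, the vessel-associated genes were unchanged in UMIs, and the ratios were -1.22 for Gzma, -2.14 for Ccl4 and -2.05 for Irf8. The part of the vessel-associated transcripts in these ratios was not tested. At 16 cells these values rest on few cells, and no ILC1 name was given.

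Cells with and without an Ifng UMI were set side by side. This division and the genes named for it were chosen after the values were seen. The 61 cells with Ifng had 1701 CPM of Xcl1 against 278 CPM in the 340 without it, a log2 ratio of 2.61 (2.27 to 2.96). Which side holds the NK cell with the most Xcl1 UMIs, described above, is not given here. Its part in the Xcl1 ratio was not tested, and the interval does not cover UMIs concentrated in a single cell. Ccl3 was at 1123 CPM with Ifng against 310 CPM (1.86, 1.48 to 2.23) and Ccl4 at 3554 CPM against 1600 CPM (1.15, 0.96 to 1.34). Ccl1 (26 UMIs against 11), Tnfrsf9, the activation receptor 4-1BB (11 against 12), and Il2ra (4 against 2) had ratios in the same direction. For Gzma and Prf1 the intervals held 0, at -0.03 (-0.14 to 0.08) and -0.36 (-0.82 to 0.08), but without the cells that carried other-lineage UMIs both lay below 0, at -0.14 (-0.25 to -0.02) and -0.45 (-0.92 to -0.02). Tnf had 2 UMIs with Ifng and 13 without, and its interval held 0 (-0.35, -3.54 to 1.79). The median depth was 1243 UMIs with Ifng and 1198 without.

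Other programs stood out less. Of 14 cell-cycle genes the sum was 209 CPM in NK cells, 160 CPM in CD8 T cells and 200 CPM in all other cells, and 9 NK cells (2.24%, 1.03 to 4.22) had at least 2 such UMIs. These 9 held 80 of the 117 cell-cycle UMIs, and 1 held 36. Interferon-stimulated genes summed to 404 CPM against 931 CPM in CD8 T cells, but the members were mixed. Of 8 compared, 2 (Isg15 and Irf7) were at least 2-fold higher, 3 (Ifi27l2a, Ly6a and Gbp2) lower and 3 in between. Their median log2 ratio was -0.62. Against all other cells 3 of 7 were higher and 2 lower. Of the immediate-early genes, which dissociation can induce, 2 of 12 were at least 2-fold above CD8 T cells and 0 lower. Over all genes 16.2% were higher and 6.61% lower. The list had a median log2 ratio of 0.20 beside 0.41 over all genes. The 2 were Nr4a1, at 855 CPM against 214 CPM, and Btg2, at 1082 CPM against 516 CPM. Btg2 was below 2-fold with totals without ribosomal protein UMIs. Against all other cells 0 of the 12 were higher and 6 lower, among them Fos, Jun and Egr1, beside 10.9% and 20.1% of all genes.

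The gene trapped in the tumors was read in NK cells as well. Stk11, at chr10:80115803-80130682 on the plus strand in mm10, had 15 UMIs in the 401 NK cells, 26.8 CPM (15.0 to 44.2), against 19.2 CPM (13.4 to 26.8) in CD8 T cells and 21.3 CPM in all other cells. A difference was not detectable at this depth (log2 ratio 0.48, -0.50 to 1.39, against CD8 T cells). Among 13 genes of the LKB1 complex and its substrate kinases, 9 were compared with CD8 T cells. At least 2-fold higher were 2 (Sik2 and Nuak2, kinases activated by LKB1), 0 were lower and 7 in between. Over all genes 16.2% were higher. Sik2 fell below 2-fold with totals without ribosomal protein UMIs. The median log2 ratio was 0.63 beside 0.41 over all genes. Against all other cells 0 of 9 were past 2-fold. The tdTomato transcript was at 175 CPM in NK cells, 220 CPM in CD8 T cells, 263 CPM in B cells and 1140 CPM in all other cells, and after thinning in 14.4% of NK and 13.8% of CD8 T cells, so it was not read as expression by NK cells. GFP had 0 UMIs.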

How the data were processed

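Viable cells sorted from lung tumors of 4 mice were profiled with 10x Genomics 3′ v3 chemistry. The deposited matrix holds UMI counts per gene and cell, which the authors made with Cell Ranger 3.0.2 on mm10, with 20351 cells, 31055 features and 58624795 UMIs. The values are raw and were not normalised. No columns of other samples were left out (0), and the smallest cell had 500 UMIs. Cells with under 200 genes (52 cells) or over 13.4% mitochondrial UMIs (the 98th percentile) were removed, which left 19892.

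UMIs were summed over each set of cells and scaled to CPM, with exact 95% Poisson intervals. Shares had Clopper-Pearson intervals, and ratios exact conditional intervals. A set at 0 was taken as 3 UMIs (5.36 CPM in NK cells, 1.65 CPM in CD8 T cells). Genes at 20 CPM or more in either set were compared, and a 2-fold difference in the ratio counted as higher or lower. Cells are not replicates and the matrix is 1 sample, so no test was run. The members and gene lists were chosen with earlier results of these data known. Besides listed genes, the 10 genes in each direction were named by the log2 ratio with 10 CPM added, among genes at 50 CPM or more outside the choice of cells, antigen receptor segments and reporters. Doublets were kept; Scrublet (expected rate 6%) marked 181 of 20299 cells (0.892%), and their removal was an alternative. Counts for NK against CD8 T cells were simulated as Poisson sums, the model the intervals assume (5601 genes, 200 of them changed). Intervals held the simulated ratio for 96.0% of genes. With the right sign and an interval off 0, 68% of 2-fold and 100% of 4-fold changes were recovered. The counts of higher and lower genes rest on the 2-fold ratio instead, which 2.68% of the unchanged genes reached or passed. UMIs concentrated in single cells were not simulated, so these shares do not cover them. Python 3.11.15, numpy 2.4.6, scipy 1.17.1, pandas 2.3.3, scanpy 1.11.5 and matplotlib 3.10.9 were used. An allele shared by all the mice and some listed genes are not reported here.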

Additional observations from a re-analysis of the deposited data

How the results depend on the processing

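Alternatives were other rules for NK and CD8 T cells, other minimum levels, other depths of thinning, doublet removal, means over cells, and, chosen after seeing the data, leaving out cells with other-lineage UMIs, calls by the interval, and totals without ribosomal protein UMIs. Of the summary values, 49 under planned and 14 under added alternatives stayed close, and 15 and 2 moved. With 3 marker UMIs NK cells were 1.32% of cells. At 50 CPM 460 genes were higher and 164 lower than in CD8 T cells, and 414 higher and 608 lower than in all other cells. With no minimum these were 2252 and 1137, and 6912 and 2468. Without ribosomal protein UMIs they were 591 and 796 against CD8 T cells, 494 and 362 of them the same genes as before. Thinned to 500 UMIs, 29.7% of NK cells had a Prf1, 9.48% an Eomes, 8.98% an Ifng and 21.2% a Klra4 UMI, and without thinning 53.1% had Prf1 and 21.9% Eomes. For single genes 361 planned and 96 added values stayed close, 68 and 12 moved, and 1 reversed: Xcl1 between the ILC1 and Eomes sides, at -0.55 without thinning, for which the cause was not tested. No paired analysis was possible because the matrix gives no mouse for a cell. The planned search of Ly49 proteins was not run, as no protein table was used here. Over all NK cells 5.36 CPM is 3 UMIs, so transcripts below this level rest on fewer UMIs or could be missed. A median NK cell held 1204 UMIs, so single cells miss many transcripts.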
